A study of Mus musculus with 30 samples.

Results

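TNFR1 triple knockout mice (XBP1IEC-KO;Casp8IEC-KO;TNFR1IEC-KO) were set against Xbp1 knockout mice (XBP1IEC-KO) to ask whether the loss of TNFR1 returns a colon that lacks both Xbp1 and Casp8 to the state of a colon that lacks Xbp1 alone. The comparison uses 10 of the 30 libraries of the series, 5 mice in each group, and all genes with enough reads, 15458 of 55487 (27.9%). Libraries were taken by their labels only, and each held 3′ tags of total RNA from the colon of 1 mouse. Both groups share the Xbp1 deletion. By their labels the triple knockouts lack Casp8 and TNFR1 in addition, all in intestinal epithelial cells (IEC), so the comparison changes 2 genes at once. The double knockout (XBP1IEC-KO;Casp8IEC-KO, 5 mice), which keeps TNFR1, is placed beside it. WT and Casp8 knockout (Casp8IEC-KO) mice, 5 each, supply gene sets that share no library with the comparison. The model was fitted to all 30 libraries, which include 5 mice labelled XBP1IEC-KO;Casp8IEC-KO;MLKLKO that are not described here. For age, strain background, the driver of the deletions and the exons removed, the sources used here give nothing.

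XBP1 is a transcription factor of the unfolded protein response that expands the secretory pathway, and secretory cells of the gut such as goblet cells depend on it. Caspase-8 starts apoptosis downstream of death receptors and holds back necroptosis, the RIPK3- and MLKL-driven lytic form of cell death. TNFR1, encoded by Tnfrsf1a, is the main receptor of the cytokine TNF and can signal to NF-kB-driven inflammatory genes or to both forms of cell death.

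Each of the 10 libraries held 4308820.8 to 5136443.7 reads, so 1 read was worth about 0.227 CPM (a gene's reads scaled to a common library total). Differences are given as log2 fold changes ± SE, triple knockout minus Xbp1 knockout unless stated, and adjusted p is from edgeR's quasi-likelihood test over all 15458 genes with a threshold of 0.05. RNA came from whole colon, so fewer cells of a type and less RNA per cell cannot be told apart. Of 15 genes of the small intestine and of Paneth cells, 8 were too low to test and none of these exceeded 1.22 CPM in any of the 10 libraries, while 32 of 34 absorptive colonocyte genes and 20 of 23 goblet cell genes could be tested. Xist and Y-linked genes marked 4 triple knockouts, 3 Xbp1 knockouts and 1 double knockout as female. Sex therefore differs little in the main comparison but moves with group in both comparisons with the double knockout, and a fit with sex as a term gave 1420 differing genes for double against Xbp1 knockout and 264 for triple against double knockout, where the fit without it gave 1335 and 363. Mitochondrial transcripts took 16.47% to 22.78% of reads in the triple knockouts and 17.19% to 22.91% in the Xbp1 knockouts.

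Of the 10 libraries 3 stood apart, and results that rest on them are given with and without them. On the first principal component of the 1000 most variable genes (29.4% of the variance) triple knockout replicate 1 lay at 31.3, inside the double knockout range of 13.6 to 41.0, and the 4 other triple knockouts lay between −5.4 and 8.1, where Xbp1 knockouts ran from −14.7 to 8.2. The library labelled Xbp1_KO replicate 2 held 21.1 CPM of Casp8, below all 5 double knockouts, which goes against its label. Ak7, an adenylate kinase, was at 1.85 CPM in it and at 58.3 CPM or more in the 4 other Xbp1 knockouts. As a group the triple knockouts were not lower in Ak7 than those 4 (0.18 without that library, adjusted p = 0.972 by edgeR). Xbp1 knockout replicate 5 and triple knockout replicate 1 were far above the others in type I interferon genes, described below.

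The targeted genes were read first. Casp8 (GRCm38 chromosome 1, 58795374 to 58847503) stood at 33.6, 23.9, 19.1, 16.8 and 16.5 CPM in triple knockout replicates 1 to 5. It stood at 50.9, 21.1, 61.7, 45 and 66.7 CPM in the Xbp1 knockouts. The groups overlapped only through the library labelled Xbp1_KO replicate 2. The difference of −1.17 ± 0.235 did not pass by edgeR (adjusted p = 0.0914), where DESeq2 (adjusted p = 0.00308) and limma voom (adjusted p = 0.0159) called it. It passed without that library (−1.36, adjusted p = 0.0013), without triple knockout replicate 1 (−1.37, adjusted p = 0.0252) and without both (−1.56, adjusted p = 0.000235). It did not pass without the library labelled Xbp1_KO replicate 5 (−1.03, adjusted p = 0.322), without that library and triple knockout replicate 1 (−1.23, adjusted p = 0.101) or when these 10 libraries were fitted by themselves (−1.17, adjusted p = 0.57). Without all 3 libraries that stood apart it was −1.46 (adjusted p = 0.00236). Tnfrsf1a (chromosome 6, 125349362 to 125362484) held 75.4, 61.5, 53.3, 52.4 and 57.7 CPM in the triple knockouts, against 71.9, 55.6, 65.9, 61.7 and 67.7 CPM in the Xbp1 knockouts. These ranges overlapped (−0.11 ± 0.131, adjusted p = 0.998). The double knockouts, at 74.5 to 113 CPM, held more Tnfrsf1a than the Xbp1 knockouts (0.57 ± 0.129, adjusted p = 0.00596), and the triple knockouts less than the double knockouts (−0.68 ± 0.13, adjusted p = 0.00557). Tags of whole tissue include cells other than epithelium, and 3′ tags can lie outside a deleted part, so this level checks nothing about the deletion. Xbp1 (0.25 ± 0.204) and Mlkl (−0.14 ± 0.409, with the opposite sign in 3 alternative fits), both at adjusted p = 0.998, did not pass either. Xbp1 was at 52.2 to 62.9 CPM in triple knockouts 2 to 5 and at 109 CPM in replicate 1, against 51.1 to 65.1 CPM in the Xbp1 knockouts, and its difference was −0.005 without that replicate.

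The colon of the TNFR1 triple knockout differed from that of the Xbp1 knockout in 3 of 15458 genes (0.0194%), all lower. The double knockout, which carries the Casp8 and Xbp1 deletions with TNFR1 present, differed from the Xbp1 knockout in 1335 genes (8.64%), 738 higher (4.77%) and 597 lower (3.86%). The difference between these comparisons can be tested gene by gene as triple against double knockout: 363 genes differed (2.35%), 158 higher (1.02%) and 205 lower (1.33%) in the triple knockout. At an unadjusted p under 0.05, edgeR's test marked 690 genes (4.46%) between triple and Xbp1 knockout, 341 higher and 349 lower. That is about the share such a threshold takes in where no gene differs. None of the higher ones passed after adjustment, where DESeq2 called 3 higher and 5 lower and limma voom 1 higher and 5 lower.

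A gene that misses the threshold is not shown to be equal, and the intervals give the room that is left. The 95% confidence interval of the difference lay within 2-fold in either direction for 13239 genes (85.6%). This share was 97.3% (9445 of 9711) for genes with a mean of at least 10 CPM and 66% (3794 of 5747) for those below. The median absolute log2 fold change was 0.122, against 0.216 between double and Xbp1 knockout, and 144 genes differed by at least 2-fold in the estimate, against 623. In simulated data with 200 changed genes among the same 15458, the test called 84% of genes changed 2-fold and 100% of those changed 4-fold. The changed genes were drawn only from those above a minimum level in the Xbp1 knockouts, and no simulated library was made to stand apart. These shares therefore do not cover low genes or libraries that stand apart. They also hold for 200 changed genes only, as the adjusted p depends on how many genes change. Every other gene was simulated at its Xbp1 knockout level in all groups.

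Leaving out the doubted libraries did not add many genes. Between triple and Xbp1 knockout, 6 genes differed (2 higher, 4 lower) once the library labelled Xbp1_KO replicate 2 was removed. Without triple knockout replicate 1, 4 differed, all lower, and without both 6 differed, 1 higher and 5 lower. Triple against double knockout, in turn, had 931 differing genes without triple knockout replicate 1, 405 higher and 526 lower, and 905 without both, in place of 363. When no other group entered the fit, 0 genes differed between triple and Xbp1 knockout by edgeR and 21 between triple and double knockout. For triple and Xbp1 knockout 727 of 14294 genes (5.09%) were then at an unadjusted p under 0.05. In females only, a fit with 1 double knockout, 0 genes differed between triple and Xbp1 knockout by edgeR (505 of 16717, or 3.02%, at an unadjusted p under 0.05).

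All 3 genes that fell lie on the chromosomes of the additionally targeted genes. Fgfr1op2, which encodes a cytoskeleton-associated protein (chromosome 6, 146577203 to 146599198), stood at 58.9, 61.9, 75.7, 43.6 and 74 CPM in the triple knockouts and at 114, 90.6, 105, 111 and 115 CPM in the Xbp1 knockouts. Every triple knockout lay below every Xbp1 knockout (−0.77 ± 0.12, adjusted p = 0.00558). The double knockouts, at 90.2 to 106 CPM, lay above every triple knockout too (triple minus double −0.63 ± 0.12, adjusted p = 0.00506). The next gene, Stk38l, a kinase of the NDR family (chromosome 6, 146724995 to 146778812), stood at 8.27, 7.74, 18.2, 7.2 and 20.4 CPM against 40.4, 16.7, 35.8, 41.2 and 33.1 CPM. Only the library labelled Xbp1_KO replicate 2, at 16.7 CPM, reached into the triple knockout range (−1.44 ± 0.264, adjusted p = 0.0311). Its call was lost without any 1 of triple knockout replicates 1, 2 and 4 or Xbp1 knockout replicates 1, 3, 4 and 5 (adjusted p = 0.0617 to 0.197). Fgfr1op2 and Gm37607, described next, passed whichever of the 10 libraries was left out, but none of the 3 passed without Xbp1 knockout replicate 5 and triple knockout replicate 1 together (adjusted p = 0.0982 to 0.183), nor in the fit of these groups alone, where Gm37607 was too low to test (Fgfr1op2 0.301, Stk38l 0.485).

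Gm37607, a gene model known by number (chromosome 1, 58383512 to 58386134), fell as well. It had 1, 2, 4, 6 and 3 reads in the triple knockouts (0.243 to 1.2 CPM) and 20, 8, 23, 28 and 30 reads in the Xbp1 knockouts (1.85 to 6.86 CPM), and the groups did not overlap. The difference was −2.76 ± 0.452 (adjusted p = 0.00688). The double knockouts held 0.49 to 1.99 CPM, also lower than the Xbp1 knockouts (−2.25 ± 0.423, adjusted p = 0.00175), and the Casp8 knockouts were lower than WT (−1.62, adjusted p = 0.0208). Its level was thus lower in each of these comparisons of mice that lack Casp8 with mice that keep it, and also in double knockout against WT. Some of these comparisons share libraries. Limma voom did not call it (adjusted p = 0.0814). Over all genes, 52 (0.336%) had every triple knockout above every Xbp1 knockout and 75 (0.485%) had every one below.

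Gm37607 lies 0.41 Mb from Casp8, and Fgfr1op2 and Stk38l lie 21.21 and 21.36 Mb from Tnfrsf1a. Within 20 Mb of Casp8 and Tnfrsf1a, 1 of 227 and 0 of 268 tested genes differed, against 0.0194% of all genes; a window of 30 Mb, chosen after these positions were seen, takes in all 3. The targeted genes themselves are left out of the counts around their loci. Around Casp8, 5 of 27 genes within 1 Mb, Gm37607 among them, were lower at an unadjusted p under 0.05 and 0 higher, against 2.26% and 2.21% of all genes. They include Mpp4 (−1.26 ± 0.33), a scaffold protein, and Trak2 (−0.51 ± 0.135), a mitochondrial transport adaptor, both at adjusted p = 0.51. The library labelled Xbp1_KO replicate 2 had the lowest Xbp1 knockout value of both, with 1.85 and 19.5 CPM. Cracr2a, a calcium sensor protein 2.2 Mb from Tnfrsf1a, was at 0.73, 0.938, 2.66, 2 and 10.4 CPM in the triple knockouts and at 24.1, 6.95, 12.4, 11.1 and 3.66 CPM in the Xbp1 knockouts. Its difference of −1.78 ± 0.471 did not pass (adjusted p = 0.51), and it did without triple knockout replicate 5 (−2.82, adjusted p = 0.00634). DNA of the strain in which an allele was made can stay linked to it, which was not tested here.

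**Figure D1:**
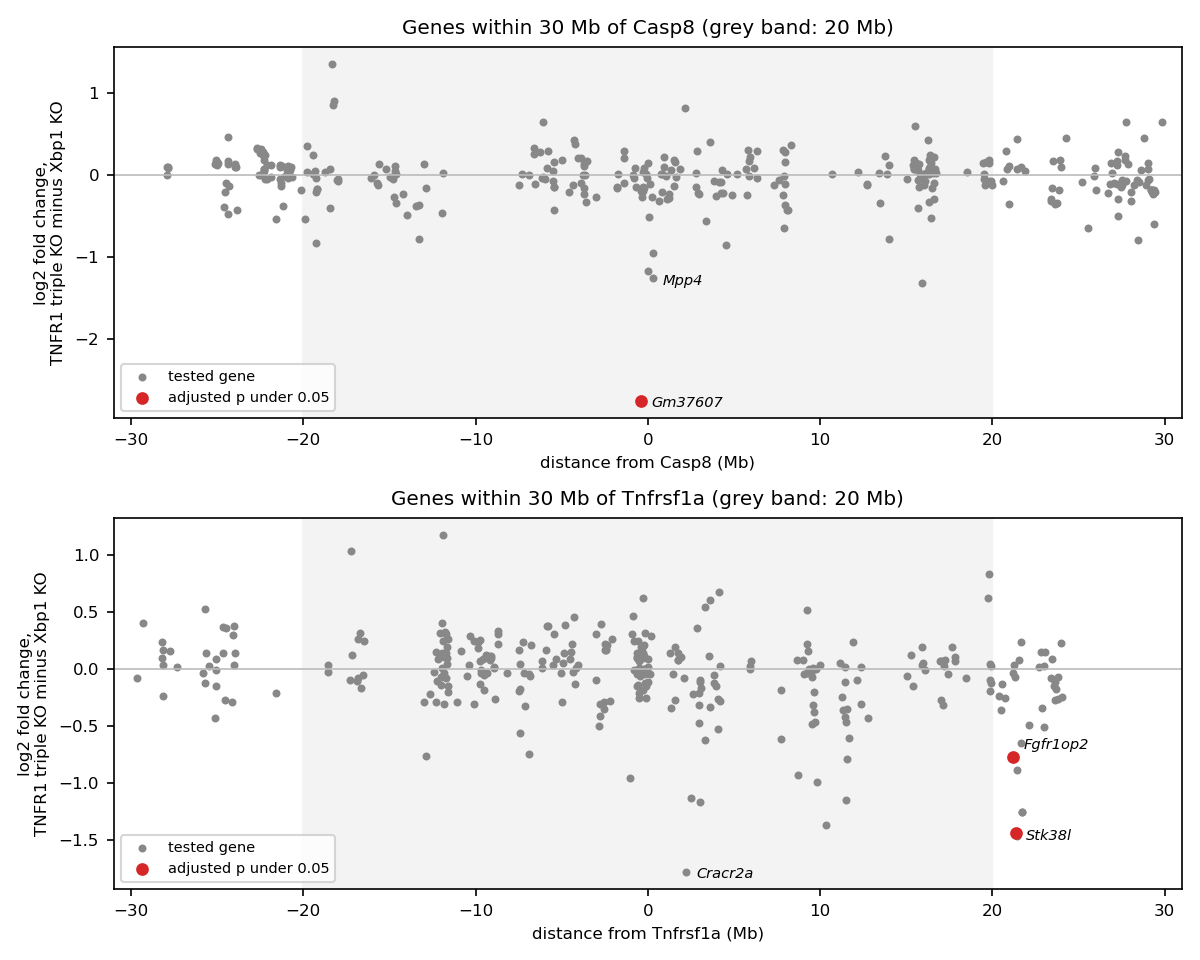
Log2 fold change of each tested gene (triple knockout minus Xbp1 knockout, vertical) against its distance in Mb from Casp8 (top) and Tnfrsf1a (bottom), with genes at adjusted p under 0.05 in red and 20 Mb shaded. Gm37607 sits at −2.76 beside Casp8, while Fgfr1op2 (−0.77) and Stk38l (−1.44) sit just outside the band of Tnfrsf1a.

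The genes next in line did not pass with all libraries. Tff3, the trefoil peptide of goblet cell mucus (chromosome 17, 31125306 to 31129646), stood at 787, 631, 580, 486 and 583 CPM in the triple knockouts and at 911, 901, 890, 1060 and 1120 CPM in the Xbp1 knockouts, without overlap. The difference of −0.67 ± 0.145 missed the threshold (adjusted p = 0.127) and passed without triple knockout replicate 1 (−0.78, adjusted p = 0.0389) and by DESeq2 (adjusted p = 0.00899), but not without Xbp1 knockout replicate 5 (−0.62, adjusted p = 0.43). Cwh43, which remodels the lipid of GPI anchors, stood at 28.5, 9.62, 18.2, 28.4 and 14 CPM against 7.55, 11.6, 8.29, 5.42 and 2.74 CPM. Only the library labelled Xbp1_KO replicate 2, at 11.6 CPM, overlapped the triple knockouts (1.47 ± 0.309, adjusted p = 0.127; 1.71, adjusted p = 0.0315, without it). Cwh43 did not pass without both that library and triple knockout replicate 1 (1.55, adjusted p = 0.12) or without Xbp1 knockout replicate 5 (1.26, adjusted p = 0.41). The double knockouts, at 24.5 to 37.9 CPM, were higher than the Xbp1 knockouts (2.1 ± 0.305, adjusted p = 0.000206) and did not differ past the threshold from the triple knockouts (−0.63 ± 0.278, adjusted p = 0.214).

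The claudin Cldn4, a tight junction protein, was at 52.8 to 102 CPM in the triple knockouts and at 29 to 50.8 CPM in the Xbp1 knockouts, again without overlap (0.9 ± 0.203, adjusted p = 0.199). Double knockouts had 49.4 to 96 CPM. For Cldn4 the triple minus double difference was 0.04 ± 0.198 (adjusted p = 0.939), and the double knockouts were higher than the Xbp1 knockouts (0.86 ± 0.203, adjusted p = 0.00762). Krt36, a hair-type keratin of the gut surface, was at 64.2, 8.21, 24, 39.8 and 25.6 CPM in the triple knockouts. It was at 27.8 CPM in the library labelled Xbp1_KO replicate 2 and at 1.41 to 3.52 CPM in the 4 other Xbp1 knockouts. The difference was 2.09 ± 0.592 with all libraries (adjusted p = 0.587) and 3.65 without that library (adjusted p = 0.00322), against 1.87 without Xbp1 knockout replicate 5 (adjusted p = 0.93). Aqp4, a water channel, had the same layout, with 142 to 350 CPM in the triple knockouts, 246 CPM in that library and 70.9 to 89.7 CPM in the 4 others (0.86 ± 0.323, adjusted p = 0.962). Mtpap, the mitochondrial poly(A) polymerase, was at 31.6, 43.6, 22.4, 39.2 and 46.8 CPM against 19.5 to 28.8 CPM (0.71 ± 0.153, adjusted p = 0.127).

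**Figure D2:**
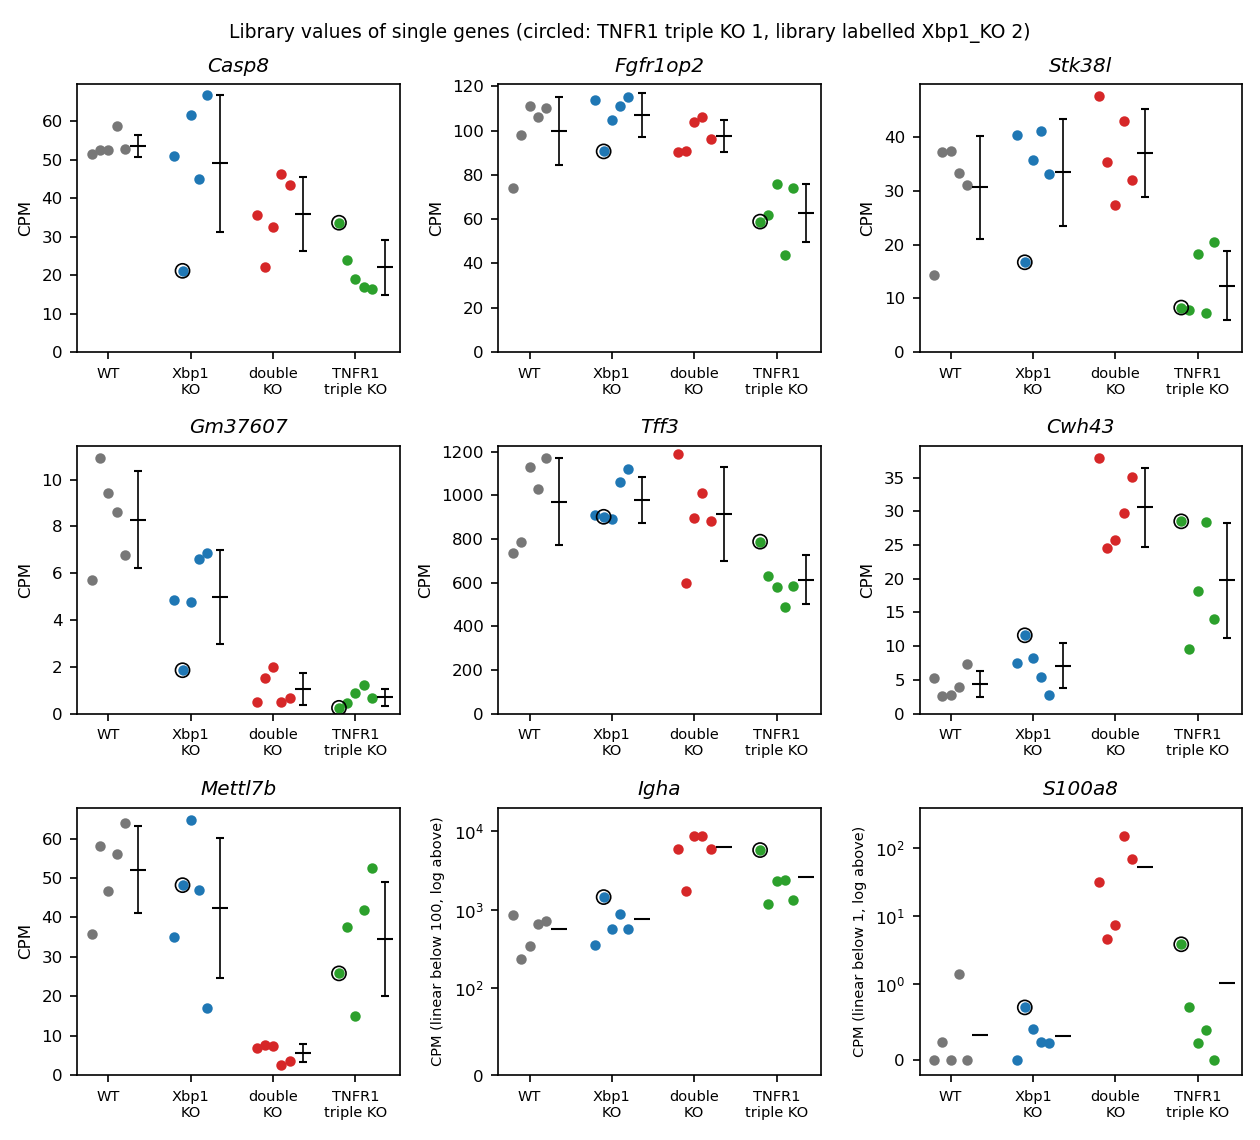
CPM of 9 genes in each library of WT, Xbp1 knockout, double knockout and TNFR1 triple knockout, with black bars for the mean ± SD of 5 mice (mean only for Igha and S100a8, whose axes are linear near 0 and logarithmic above). Fgfr1op2 is lowest in the triple knockouts (62.8 ± 13 CPM against 107 ± 9.93 CPM), Mettl7b is lowest in the double knockouts (5.61 ± 2.38 CPM), and the circled triple knockout 1 lies among the double knockouts for Igha.

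Gene sets taken from libraries outside the comparison show what remained of the double knockout state. Of the 1715 genes higher in the double knockout than in WT (11.1% of all), 73.8% were above 0 in triple minus Xbp1 knockout, against 51.4% of all genes. Their median was 0.105 there, against 0.68 in double knockout minus WT and 0.006 for all genes, and 128 were higher and 16 lower at an unadjusted p under 0.05. Of the 1576 genes lower in the double knockout than in WT (10.2%), 31.2% were above 0, with a median of −0.093 against −0.74, and 5 were higher and 112 lower at an unadjusted p under 0.05. Among these 3291 genes only Gm37607 differed between triple and Xbp1 knockout after adjustment.

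The shift lay mostly in 1 library. Deviations were taken from each gene's median over the 10 libraries, and the median over the set is given per library. Over the genes higher in the double knockout, triple knockouts 1 to 5 had 0.3, −0.07, −0.01, 0.05 and 0, and the Xbp1 knockouts −0.08 to 0.04. Over the genes lower in it the triple knockouts had −0.38, 0.03, 0.05, −0.03 and −0.02, and the Xbp1 knockouts −0.06 to 0.1. Without triple knockout replicate 1 the 2 medians of the comparison were 0.027 and −0.024, with 57.7% and 44.7% of the genes above 0. Without both doubted libraries they were 0.049 and −0.051, with 59.3% and 40% above 0.

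The genes that the Casp8 deletion alone changed give another pair of sets. The 98 genes higher in the Casp8 knockout than in WT (0.634% of all) had a median of 0.054 in the comparison with 72.4% above 0, and the 83 lower genes (0.537%) a median of −0.066 with 33.7% above 0. Without triple knockout replicate 1 these medians were 0.024 and −0.016. Of the 26 genes that were higher in the Casp8 knockout by at least 2-fold, the median in the comparison was 0.7, and of the 29 lower by at least 2-fold −0.07. Krt36, Aqp4 and Cldn4 passed as higher in the Casp8 knockout (3.56, 2.29 and 1.05, adjusted p at most 0.0112), and Ank1, an ankyrin of the membrane skeleton, as lower (−1.37, adjusted p = 0.00169). Ank1 was at 12.6 to 20.9 CPM in the triple knockouts against 13.9 CPM in the library labelled Xbp1_KO replicate 2 and 30.9 to 41.9 CPM in the 4 other Xbp1 knockouts (−0.82 ± 0.229, adjusted p = 0.587).

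Some named genes of the double knockout state had triple knockout values near those of the Xbp1 knockouts. The rule picks such genes for a low p in double knockout against WT. Triple minus double reuses the same double knockout libraries, so its p-values are not independent of that choice. Mettl7b, a methyltransferase of lipid droplets and the endoplasmic reticulum (chromosome 10, 128958274 to 128960988), held 25.8, 37.5, 14.9, 41.8 and 52.5 CPM in the triple knockouts and at 35.1, 48.2, 64.8, 46.9 and 17.1 CPM in the Xbp1 knockouts. All double knockouts lay far below, at 2.47 to 7.67 CPM (triple minus double 2.6 ± 0.331, adjusted p = 5.38e-05). Dio1, which activates thyroid hormone, was at 17.5 to 46.2 CPM and at 31.1 to 48.5 CPM in the triple and Xbp1 knockouts and at 6.18 to 19.2 CPM in the double knockouts. Triple minus Xbp1 knockout was −0.3 ± 0.278 for Mettl7b and −0.19 ± 0.22 for Dio1, with 95% intervals of −0.87 to 0.27 and −0.64 to 0.26. Triple minus double knockout was 1.5 ± 0.239 for Dio1 (adjusted p = 0.000936). Pcp4, a calmodulin-binding peptide (1.29 ± 0.24, adjusted p = 0.00474), and the Wnt ligand gene Wnt8b (1.34 ± 0.295, adjusted p = 0.017) were also higher in the triple than in the double knockout.

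Cldn4, described above, was near the double knockouts instead. For another gene the triple knockout values lay between. Ddah1, which degrades methylarginines, was at 91.4, 24.9, 33.1, 38.6 and 28.3 CPM in the triple knockouts and at 17.3, 35, 10.4, 13.4 and 13.7 CPM in the Xbp1 knockouts. The double knockouts held 63.8 to 109 CPM. Triple minus Xbp1 knockout was 1.27 ± 0.34 (adjusted p = 0.512) and triple minus double −0.96 ± 0.317 (adjusted p = 0.0964), so neither difference passed. Without both doubted libraries the first was 1.19 (adjusted p = 0.217).

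Gene lists were read by role, and no member of any of the 37 lists differed between triple and Xbp1 knockout. Without triple knockout replicate 1 the goblet cell gene Tff3 passed, and without the library labelled Xbp1_KO replicate 2 the keratin gene Krt36. Counts below are of members past the adjusted threshold, to be read against 0.0194% of all genes for triple minus Xbp1 knockout, 8.64% for double minus Xbp1 knockout and 2.35% for triple minus double knockout.

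Of the 22 measured genes of TNF receptor complexes and death signalling, 4 were higher in the double than in the Xbp1 knockout and 0 differed between triple and Xbp1 knockout, with medians of 0.27 and 0.09. Ripk3, the kinase that activates MLKL in necroptosis, was at 33.3 CPM in triple knockout replicate 1 and at 5.4 to 16.2 CPM in the 4 others. The Xbp1 knockouts held 7.55 to 17.4 CPM and the double knockouts 21.6 to 36.6 CPM. For Ripk3 double minus Xbp1 knockout was 1.21 ± 0.29 (adjusted p = 0.00884) and triple minus Xbp1 knockout 0.47 ± 0.297 (adjusted p = 0.998). Caspases and gasdermins, the executioners of apoptosis and pyroptosis, had 5 of 23 members higher and 2 lower in the double knockout and 0 in the triple knockout (medians 0.21 and 0.04).

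NF-kB targets and inflammatory cytokines had 7 of 16 members higher in double than in Xbp1 knockouts (median 0.9) and 0 in the triple (0.2, or 0.05 without replicate 1). In the test of triple against double knockout 2 were lower, and 7 without triple knockout replicate 1. Cxcl16, a membrane-bound chemokine that draws lymphocytes, was at 25.1 to 50.3 CPM in the triple knockouts and at 10.5 to 32.9 CPM in the Xbp1 knockouts (0.84 ± 0.254, adjusted p = 0.663). S100a8, an antimicrobial protein of neutrophils, had 16, 3, 1, 2 and 0 reads in the triple knockouts and 0, 3, 2, 1 and 1 in the Xbp1 knockouts. In the double knockouts it reached 4.6 to 152 CPM, above every triple knockout (0 to 3.89 CPM; triple minus double −5.69 ± 0.993, adjusted p = 0.00235). With so few reads the interval of triple minus Xbp1 knockout, −2.23 to 5.35, leaves S100a8 undecided, and 13 of the 16 neutrophil genes were too low to test.

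Epithelial antimicrobial and acute phase genes were higher in the double than in the Xbp1 knockouts for 11 of 17 measured members (median 1.67), and 0 differed in the triple knockout (0.52, or 0.03 without replicate 1). Slpi, a secreted protease inhibitor, was at 429, 28.9, 57.3, 73.8 and 26.9 CPM in the triple knockouts and at 23.4, 69.8, 24, 26.4 and 77 CPM in the Xbp1 knockouts. Replicate 1 alone stood within the double knockout range of 140 to 536 CPM. The difference of 1.48 ± 0.677 (adjusted p = 0.998) was 0.09 without it. Duox2 and its maturation factor Duoxa2, which make hydrogen peroxide at the epithelial surface, had the same layout. In triple knockout replicate 1 they stood at 358 and 42.8 CPM, and in the 4 others at 64.6 to 139 and 5.43 to 14 CPM. Of these antimicrobial genes 5 were lower in the triple than in the double knockout. Without triple knockout replicate 1, 18 could be tested, of which 11 were lower and 1 higher.

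Interferon gamma response and antigen presentation genes had 14 of 34 members higher in the double than in the Xbp1 knockouts (median 1.28) and 0 in the triple. Their median in triple minus Xbp1 knockout was 0.32 with all libraries and turned to −0.33 without triple knockout replicate 1 and to −0.44 without both doubted libraries. These were the only 2 of 22 alternative fits with the opposite sign, and the median was 0.75 without Xbp1 knockout replicate 5. Relative to the double knockout 4 members were lower with all libraries, 22 without triple knockout replicate 1 and 23 without both doubted libraries. Cd74, the invariant chain of MHC class II, was at 350, 132, 188, 250 and 162 CPM in the triple knockouts and at 70.9, 232, 126, 158 and 172 CPM in the Xbp1 knockouts (0.51 ± 0.361, adjusted p = 0.998). The ranges overlapped, as they did for H2-Ab1, an MHC class II chain (165 to 365 and 112 to 240 CPM). Cxcl9, a T cell chemokine induced by interferon gamma, was at 32.8 CPM in triple knockout replicate 1, at 0.226 to 3.33 CPM in the 4 others and at 0 to 2.29 CPM in the Xbp1 knockouts. Socs1, a feedback inhibitor of interferon signalling, was at 9.24 CPM in that replicate and at 1.17 to 3.77 CPM in the 4 others, against 0.463 to 2.74 CPM.

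**Figure D3:**
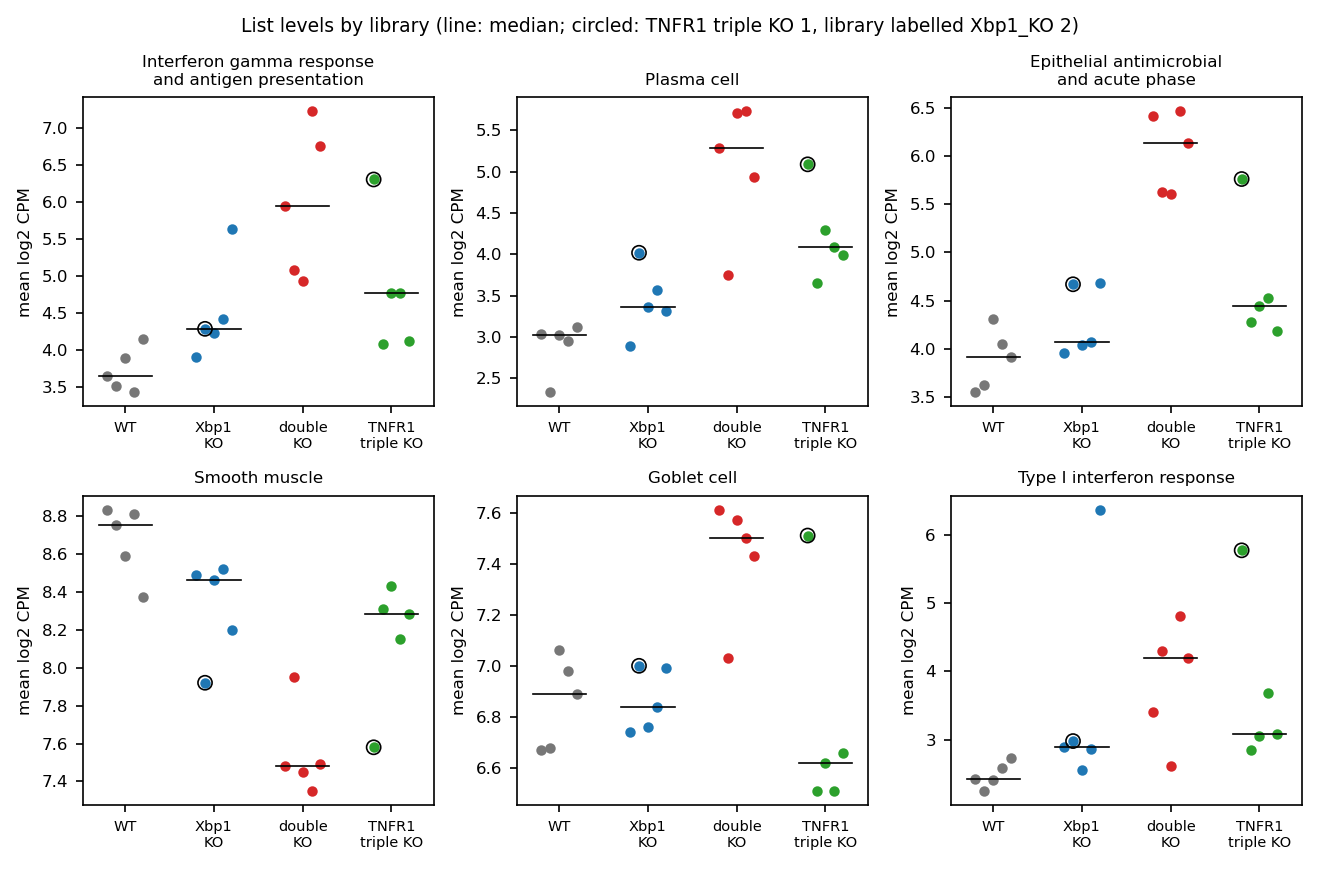
Mean log2 CPM over the measured members of 6 gene lists in each library, with the group median as a line, in WT, Xbp1 knockout, double knockout and TNFR1 triple knockout. Triple knockout 1 and the library labelled Xbp1_KO 2 are circled; the former is the highest or lowest of its group in all 6 lists (for example 7.51 against 6.51 to 6.66 in the Goblet cell list), and Xbp1 knockout 5 is the highest library for type I interferon genes (6.36).

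Of the immune cell lists with at least 5 measured members, plasma cell genes had the highest median. Of 16 members 11 were higher in the double than in the Xbp1 knockouts (median 1.91). In the triple knockout the median was 0.81, with 0 members past the threshold and 8 higher at an unadjusted p under 0.05. Igha, the constant region of IgA (chromosome 12, 113254830 to 113260236), held 5730, 1170, 2300, 2380 and 1310 CPM in the triple knockouts and at 352, 1440, 563, 882 and 557 CPM in the Xbp1 knockouts. All triple knockouts lay above 4 Xbp1 knockouts, and the library labelled Xbp1_KO replicate 2, at 1440 CPM, lay above 2 triple knockouts (1.77 ± 0.498, adjusted p = 0.587). Double knockouts had 1710 to 8770 CPM of Igha, and triple minus double was −1.27 ± 0.49 (adjusted p = 0.153). Igkc, Jchain and Derl3, which encode the kappa light chain, the joining chain of IgA and an export factor of the endoplasmic reticulum, differed by 1.74 ± 0.496, 1.5 ± 0.464 and 1.62 ± 0.522 (adjusted p = 0.587 to 0.73). The list median was 0.7 without triple knockout replicate 1, 1.06 without the library labelled Xbp1_KO replicate 2 and 0.89 without both. It stayed above 0 in all 22 alternative fits (0.54 to 1.06). Against the double knockout 1 plasma cell gene was lower, and 10 without triple knockout replicate 1.

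Other immune cell lists had no member past the threshold. The 8 measured of 21 T and NK cell genes had a median of 0.49 and were all above 0 in the estimate. For 20 monocyte and macrophage genes the median was 0.14, against 0.83 in double minus Xbp1 knockout, where 9 were higher. Ccr2, the receptor that brings monocytes from the blood, was at 19.9, 14.1, 18.9, 22.8 and 11.5 CPM in the triple and at 6.58, 10.2, 6.42, 9.19 and 13.7 CPM in the Xbp1 knockouts (0.92 ± 0.286, adjusted p = 0.685). Cd163, a scavenger receptor of resident macrophages, was at 2.43, 8.68, 10.9, 10 and 8.82 CPM against 13.2, 9.73, 19.9, 18.6 and 18.1 CPM (−0.95 ± 0.307, adjusted p = 0.731). Only 2 of 15 eosinophil and mast cell genes could be tested. Of these the mast cell protease Cma1 was at 3.28 to 8.75 CPM against 0.942 to 3.24 CPM without overlap (1.5 ± 0.461, adjusted p = 0.685), and Kit, the stem cell factor receptor, which pacemaker cells of the gut also carry, was at 23.7 to 29.6 against 30.7 to 45 CPM (−0.38 ± 0.151, adjusted p = 0.998). B cell genes had medians of 0.05 in triple and −1.62 in double minus Xbp1 knockout.

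**Figure D4:**
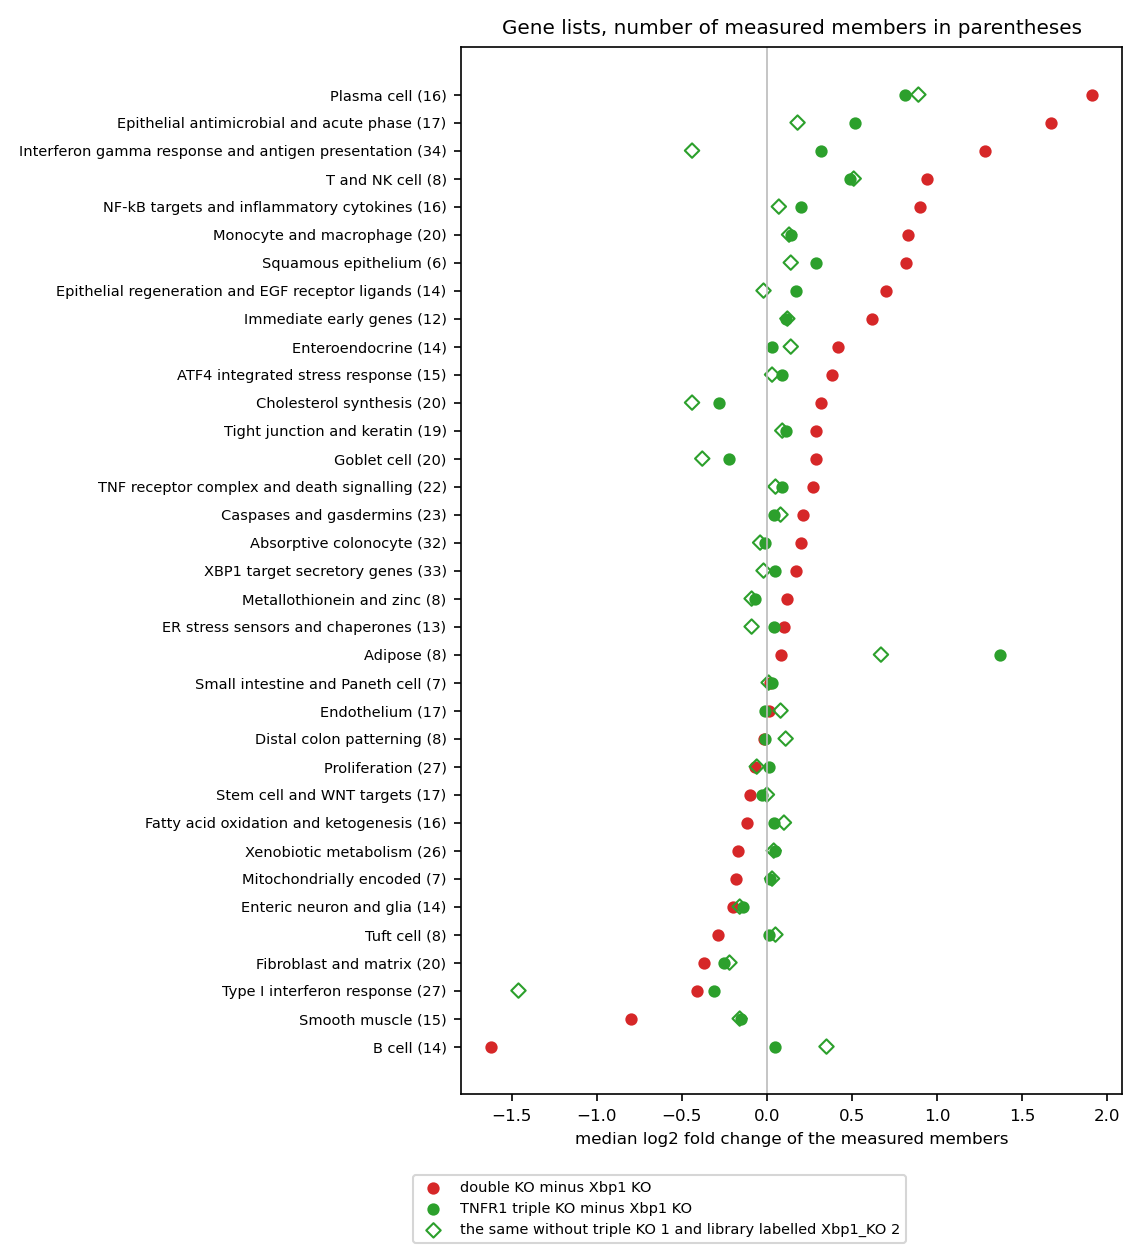
Median log2 fold change of the measured members of each list of at least 5, relative to the Xbp1 knockout, for the double knockout (red), the TNFR1 triple knockout (green) and the latter without the 2 doubted libraries (open). Plasma cell genes stand at 1.91 and 0.81, and smooth muscle genes at −0.8 and −0.15. Both comparisons share the Xbp1 knockout libraries.

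As a list, goblet cell genes lay on the lower side. Their median was −0.22 over 20 members, −0.38 without triple knockout replicate 1, and between −0.42 and −0.1 over all 22 alternative fits, with 2 members higher and 4 lower at an unadjusted p under 0.05. In the estimate 13 members were below 0 and 7 above, from −0.76 to 3.33, and the members given here with values are all lower ones. In double minus Xbp1 knockout the median was 0.29, with 5 members higher and 1 lower. In the triple knockout 5 were lower than in the double knockout, and 10 without triple knockout replicate 1. Clca1, a mucus-processing protease, was at 965, 679, 684, 416 and 739 CPM in the triple knockouts and at 1080 to 1240 CPM in the Xbp1 knockouts. The groups did not overlap (−0.76 ± 0.182, adjusted p = 0.317), and limma voom called the gene (adjusted p = 0.0159). Clca1 was lower in the double than in the Xbp1 knockouts as well (361 to 796 CPM, −1.01 ± 0.183, adjusted p = 0.00132). Bcas1 was at 50 to 86.6 CPM against 69.6 to 95.1 CPM (−0.38 ± 0.164, adjusted p = 0.998). Muc2, the main mucin of the colon, stood at 746, 457, 300, 286 and 362 CPM in the triple knockouts and at 431, 587, 493, 480 and 513 CPM in the Xbp1 knockouts. Replicate 1 was the highest of the 10 and 3 of the 4 others lay below every Xbp1 knockout (−0.22 ± 0.191, adjusted p = 0.998; −0.51 without replicate 1, adjusted p = 0.999). Against the double knockout, Muc2 was lower in the triple (−0.7 ± 0.192, adjusted p = 0.0457).

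The stress pathways tied to XBP1 differed little. XBP1 target secretory genes had a median of 0.05 over 33 members (−0.03 without triple knockout replicate 1), and in all 33 the 95% interval lay within 2-fold. The same held for all 13 measured ER stress sensors and chaperones, with a median of 0.04 (−0.09 without that replicate), and for 14 of 15 genes of the ATF4 integrated stress response (0.09). Absorptive colonocyte genes had a median of −0.01 over 32 members. The list also holds ion channels and transporters that do not mark absorptive cells alone. Among them Best2, a bicarbonate-permeable channel, was at 26.2 to 36.7 CPM in the triple and 35.9 to 61.1 CPM in the Xbp1 knockouts (−0.65 ± 0.194, adjusted p = 0.646). The chloride importer Slc12a2 was at 260 to 314 against 318 to 378 CPM without overlap, a difference of −0.24 ± 0.0945 (adjusted p = 0.998). It was lower in the triple than in the double knockout (−0.41 ± 0.0945, adjusted p = 0.0222).

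Cholesterol synthesis genes had a median of −0.28 over 20 members, of which 18 were below 0 in the estimate and 2 were lower at an unadjusted p under 0.05. The median lay between −0.48 and −0.13 in all 22 alternative fits. Insig1, which restrains the pathway and is induced with it, was at 22.1, 6.33, 7.1, 10.6 and 18.6 CPM in the triple knockouts and at 29.5, 18.5, 17.4, 25.2 and 29.3 CPM in the Xbp1 knockouts (−0.89 ± 0.268, adjusted p = 0.66). Lss, lanosterol synthase, was at 12.7 to 26.3 CPM against 25.3 to 37.5 CPM (−0.69 ± 0.23, adjusted p = 0.799) and was lower than in the double knockout (−0.92 ± 0.229, adjusted p = 0.0284). Tested against the double knockout 3 members were lower, and 15 without triple knockout replicate 1.

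Smooth muscle genes, which encode the contractile apparatus of the gut wall, were lower in the double than in the Xbp1 knockouts for 12 of 15 members (median −0.8). In the triple knockout 0 of 15 differed (−0.15), all 15 intervals lay within 2-fold, and 8 were higher than in the double knockout. Smtn, smoothelin, was at 153, 223, 243, 242 and 238 CPM in the triple and 275, 194, 252, 303 and 256 CPM in the Xbp1 knockouts (−0.22 ± 0.138, adjusted p = 0.998). The lowest value of each group came from triple knockout replicate 1 and the library labelled Xbp1_KO replicate 2. Actg2, enteric smooth muscle actin, had 336 CPM in the latter against 611 to 776 CPM in the 4 other Xbp1 knockouts and 417 to 750 CPM in the triple knockouts. How much muscle a tissue piece held was not measured apart from these genes, and its part in other lists was not tested.

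Fibroblast and matrix genes had a median of −0.25 with 7 of 20 members lower and 1 higher at an unadjusted p under 0.05, and 0 past the threshold. In double minus Xbp1 knockout 8 were lower (median −0.37). Sparc, a collagen-binding matrix protein, was at 334 to 467 CPM in the triple knockouts, 396 CPM in the library labelled Xbp1_KO replicate 2 and 555 to 605 CPM in the other Xbp1 knockouts (−0.45 ± 0.125, adjusted p = 0.568). Col1a1, a chain of type I collagen, was at 203 to 278 against 263 to 406 CPM (−0.45 ± 0.168, adjusted p = 0.962), and the collagenase Mmp13 at 3 to 9.73 against 1.71 to 3.2 CPM (1.06 ± 0.408, adjusted p = 0.998). Adipose genes had the largest median of the lists with at least 5 measured members, 1.37 over 8, with 0 past the threshold and 0.67 without both doubted libraries. Their mean log2 CPM ran from 1.36 to 4.71 in the triple and from 1.56 to 3.8 in the Xbp1 knockouts. Stem cell and WNT target genes had a median of −0.03 over 17 members, with estimates from −0.77 to 0.5. At an unadjusted p under 0.05, 3 members were higher and 1 was lower. Lgr5, the receptor that marks crypt stem cells, was at 3.75 to 6.11 CPM against 4.4 CPM in the library labelled Xbp1_KO replicate 2 and 8.72 to 10.6 CPM in the 4 others (−0.77 ± 0.264, adjusted p = 0.845). The 27 proliferation genes had a median of 0.01, with 25 intervals within 2-fold.

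Type I interferon genes varied more within than between the groups. Isg15, a ubiquitin-like protein induced by interferon, was at 219, 9.38, 10.9, 22.2 and 9.28 CPM in the triple knockouts and at 6.58, 4.63, 3.52, 5.89 and 322 CPM in the Xbp1 knockouts. Ifit1, which binds foreign RNA, was at 185, 10.3, 16.2, 32.6 and 13.8 CPM against 6.34, 9.5, 4.14, 7.54 and 248 CPM. In both genes 1 library of each group, triple knockout replicate 1 and Xbp1 knockout replicate 5, stood far above the others. Of 27 measured list members 0 passed, the median was −0.31, and only 3 intervals lay within 2-fold. The median was −1.27 without triple knockout replicate 1 and 1.18 without Xbp1 knockout replicate 5, so its direction turned on which library was kept. Without both of these libraries, a choice made after seeing the data, Isg15 differed by 1.35 and Ifit1 by 1.42 (adjusted p = 1 for each), and 0 genes differed over the whole table by edgeR (488 at an unadjusted p under 0.05).

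Promoters are shown for these genes because members of the list moved together across libraries. The motif searched was GAAA, any 2 bases, GAAA, the core of the interferon-stimulated response element. It was read on both strands, with overlapping matches kept, in 300-base windows around RefSeq start sites (GRCm38.p6). Windows were at hand for 19 of the 27 measured list members, of which 12 held it (63.2%), against 402 of 10738 tested genes with a window (3.74%). The 150 bases before the start are given on the gene's strand with the motif, or its reverse complement, in capitals, at chr4:156200819-156200968 (minus strand) and chr19:34640739-34640888 (plus strand).
Isg15: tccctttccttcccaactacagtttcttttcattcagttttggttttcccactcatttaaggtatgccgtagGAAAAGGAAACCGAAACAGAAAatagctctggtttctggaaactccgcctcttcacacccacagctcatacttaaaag
Ifit1: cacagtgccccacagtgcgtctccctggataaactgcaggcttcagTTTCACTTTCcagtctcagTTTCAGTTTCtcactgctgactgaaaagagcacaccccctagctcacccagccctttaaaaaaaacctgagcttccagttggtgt
Isg15 has 3 overlapping matches, the first starting 78 bases before the start, and Ifit1 has 2 on the opposite strand. A match is a run of letters and no evidence of binding.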

How the data were processed

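The authors deposited estimated counts per gene, not always whole numbers, from 3′ tag libraries (Lexogen QuantSeq forward, per the labels' protocols). The submitters' processing notes name GRCm38 (mm10), featureCounts 2.01, Subread, cutadapt 3.2 and R 4.0.0, with no strand or multi-mapping setting, so antisense partners and near-identical genes, immunoglobulin segments among them, are uncertain. All values were rounded (11.2% of those above 0 held a fraction). The 92 spike-in features held 0 reads. All 30 libraries entered 1 fit (R 4.3.3, edgeR 4.0.16, TMM, filterByExpr by group, quasi-likelihood F test, Benjamini-Hochberg over 15458 genes; biological coefficient of variation 0.186). Each library comes from its own mouse (per the labels' protocols). Symbols and positions come from GENCODE for 55227 of 55487 identifiers. Intervals cover the model's error only, and reads can hold PCR copies.

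The comparison, the gene lists and the rule for named genes were chosen with earlier results of these data known. The rule took the targeted genes, the genes called in the comparison other than immunoglobulin segments and numbered models, the members of each list with the lowest p (at most 4), the lowest p genes of Casp8 knockout and of double knockout against WT (8 each way), and called genes within 20 Mb of Casp8 or Tnfrsf1a. Which of these are printed was decided after their values were seen. Cwh43, named by the rule, is also described as next in line, and Mtpap, Mpp4, Trak2, Cracr2a, Muc2, Isg15 and Ifit1 were added after their values were seen. Some results are not reported here. Alternatives used limma 3.58.1 and DESeq2 1.42.0.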

Additional observations from a re-analysis of the deposited data

Results flagged for a closer look

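In groups of 5, a library is given here where its gap to the nearest other library exceeded 0.71 of the group's range, on the log2 scale; chance alone gives about 1 in 20 groups. Of 186 groups tested (the lists and the genes named, in triple and Xbp1 knockouts) 27 had such a library, always triple knockout replicate 1, the library labelled Xbp1_KO replicate 2 or Xbp1 knockout replicate 5.

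Triple knockout replicate 1 stood apart in mean log2 CPM of 9 lists. It was high in NF-kB targets and inflammatory cytokines (4.17), ER stress sensors and chaperones (6.58), goblet cell (7.51), epithelial antimicrobial (5.76), type I interferon (5.77), epithelial regeneration (4.92) and squamous epithelium genes (2.85). For endothelium (3.56) and enteric neuron and glia genes (2.59) it was the lowest of its group. Among single genes it was high in Xbp1 (109 CPM) and Isg15 (219 CPM) and low in Smtn (153 CPM), Cd163 (2.43 CPM) and Pcp4 (10.5 CPM).

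The library labelled Xbp1_KO replicate 2 was low in enteric neuron and glia genes (mean log2 CPM 2.92), Stk38l (16.7 CPM), Actg2 (336 CPM), Sparc (396 CPM), Lgr5 (4.4 CPM), Ak7 (1.85 CPM) and Ank1 (13.9 CPM). It was high in Aqp4 (246 CPM) and Krt36 (27.8 CPM). Xbp1 knockout replicate 5 was high in type I interferon genes (mean log2 CPM 6.36), Isg15 (322 CPM), Ifit1 (248 CPM) and Xbp1 (65.1 CPM).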

How the results depend on the processing

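Leaving out 1 library at a time gave 2 to 6 differing genes for triple against Xbp1 knockout, 748 to 1681 for double against Xbp1 knockout, 63 to 931 for triple against double knockout, 88 to 188 for Casp8 knockout against WT and 2580 to 3383 for double knockout against WT. It gave 0 to 1 list members and 1 to 2 genes near the targeted loci. Medians of the sets ran from 0.027 to 0.138 and from −0.128 to −0.024 (double knockout, higher and lower) and from 0.024 to 0.088 and from −0.121 to −0.016 (Casp8 knockout). Triple against Xbp1 knockout had 8 genes by DESeq2 and with no low-count filter, 6 by limma voom and without both doubted libraries, and 0 in a fit without other groups, in females only and without Xbp1 knockout replicate 5 and triple knockout replicate 1. List members numbered 2 by DESeq2, by limma voom, with no filter and without both doubted libraries. Genes near the targeted loci numbered 3 in a window of 30 Mb, and 0 by limma voom, in females only, in the fit without other groups and without Xbp1 knockout replicate 5 and triple knockout replicate 1. Triple against double knockout had 21 genes in the fit without other groups, 905 without both doubted libraries, 936 in each of the 2 exclusions added after seeing the data (Xbp1 knockout replicate 5 and triple knockout replicate 1, with or without the library labelled Xbp1_KO replicate 2), and 0 in females only. Double against Xbp1 knockout had 797 and 0 in the fits without other groups and of females. Casp8 knockout against WT had 356 by DESeq2, 505 by limma voom, 435 in the fit without other groups and 101 with sex as a term. The causes were not tested. With the replicate number as a block (replicate block), triple against Xbp1 knockout had 2 genes. Numbers did not pair the mice: correlations of same-numbered libraries were −0.239, −0.055, −0.025, −0.123 and −0.25, and 0 of 5 correlated best with their own number.

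Among the genes named, directions turned for 6 that never passed. Isg15 and Ifit1 were at 0.8 and 0.97 by limma voom, 1.23 and 1.09 with the block, 3.38 and 2.9 without Xbp1 knockout replicate 5, 1.35 and 1.42 without it and triple knockout replicate 1, and 1.3 and 1.62 without the library labelled Xbp1_KO replicate 2 as well. Ifit1 was at 0.15, 0.12, 0.02 and 0.15 without triple knockout replicates 2 to 5. Mlkl was at 0.12 without those 3 libraries, 0.02 without triple knockout replicate 2 and 0.42 without Xbp1 knockout replicate 5. Xbp1 was at −0.005 without triple knockout replicate 1 and −0.01 without both doubted libraries. Ak7 was at −0.06 without the 3 libraries, and S100a8 at −0.05 without Xbp1 knockout replicate 5 and triple knockout replicate 1. Over all fits that left out 1 library, Isg15 ran from −2.39 to 3.38, Ifit1 from −1.58 to 2.9, Mlkl from −0.65 to 0.42 and Xbp1 from −0.005 to 0.32. List and set medians were compared with a spread defined here, the mean of the SDs of per-library medians in the 2 groups; by it 38 of 814 list medians moved. Groups of 5 and 0.227 CPM a read leave genes below 10 CPM least resolved.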
